A study of Mus musculus with 4 samples.

Results

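The genes described here are 29 genes of sterol and lipid synthesis, measured by RNA-seq in cultured muscle stem cells (MuSCs) of adult mice. They were taken by gene symbol from the table of 55267 gene entries. Each symbol matched 1 entry, and all 29 were among the 13128 entries with a mean level of at least 1 TPM (a transcript level corrected for length and scaled to a sum of 1000000 per library) that were tested. The genes fall into 7 mevalonate steps up to farnesyl diphosphate, 11 steps from squalene to cholesterol, 5 SREBP regulators, 5 genes of fatty acid synthesis and desaturation, and the sterol transfer protein gene Stard4.

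MuSCs came from the skeletal muscle of female C57BL/6N mice aged 9 weeks with the transgene Tg(Pax7-EGFP)Tajb. They were sorted by the green reporter after 1 day of culture and grown for 2 more days with 15% FBS at 3% O2. All 4 libraries then shared 6 h without serum in the presence of the soluble BMP receptor BMPR-1A-Fc at 200 ng/mL. By the published methods, that medium also held B27 supplement without vitamin A. The earlier culture medium held basic FGF and leukemia inhibitory factor. In the last step, 2 libraries received 100 ng/mL BMP6 for 1 h, and 2 control libraries received the vehicle, 4 mM HCl with 0.1% BSA. Because serum had been withdrawn from every library and no library with serum was compared, the response of these genes to serum withdrawal itself was not measured here. The reporter follows the Pax7 promoter and marks the cells at the time of sorting, before the further days of culture.

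Cholesterol is made from acetyl-CoA through mevalonate, farnesyl diphosphate, squalene and lanosterol. The genes of this route, like those for fatty acid synthesis, are activated by SREBPs, transcription factors held as precursors in the membrane of the endoplasmic reticulum. When membrane sterol is low, SCAP escorts the precursors to the Golgi apparatus, where they are cut and released to the nucleus. When sterol is high, the INSIG proteins hold SCAP back. SREBP-2 acts mainly on sterol genes and SREBP-1 mainly on fatty acid genes, and Insig1 is itself an SREBP target.

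Promoters are shown first, because many of these genes are known SREBP targets. RefSeq promoters (GRCm38.p6, from 250 bases before to 50 bases after the start site) were listed for 23 of the 29 members. Those of Fdps, Fdft1, Sqle, Scd1, Scd2 and Stard4 were not printed or searched. The search covered both strands for TCACNCCAC, a sterol regulatory element, for CCAAT, the box bound by the SREBP partner NF-Y, for CACGTG, the E-box, and for GGCGCC, a GC-rich sequence bound by SMAD proteins of the BMP pathway. No letters of one motif overlap another in the runs below. The 7 runs belong to 7 of the 12 members past the threshold between the replicates, as described further on. Acat2, Hsd17b7, Acly and Fasn also passed and had a listed promoter, but are not printed. That of Acat2 held none of the motifs. Each run gives the 250 bases upstream of the start site, 5′ to 3′ on the strand of the gene. Matches on either strand are in capitals.
Hmgcs1 (chr13:119690101-119690350, plus strand, the sterol regulatory element and CCAAT boxes in capitals): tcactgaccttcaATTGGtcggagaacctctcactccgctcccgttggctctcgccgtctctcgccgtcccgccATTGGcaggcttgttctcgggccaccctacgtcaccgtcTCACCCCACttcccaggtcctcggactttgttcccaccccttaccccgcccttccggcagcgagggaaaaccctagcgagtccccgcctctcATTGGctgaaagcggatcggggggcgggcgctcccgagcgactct
Idi1 (chr13:8885356-8885605, plus strand, CCAAT boxes in capitals): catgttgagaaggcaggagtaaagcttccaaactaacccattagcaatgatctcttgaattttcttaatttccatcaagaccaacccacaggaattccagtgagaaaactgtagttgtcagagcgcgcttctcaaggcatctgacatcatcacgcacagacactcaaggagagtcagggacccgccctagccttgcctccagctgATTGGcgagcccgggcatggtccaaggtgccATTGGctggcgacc
Lss (chr10:76531355-76531604, plus strand, a CCAAT box in capitals): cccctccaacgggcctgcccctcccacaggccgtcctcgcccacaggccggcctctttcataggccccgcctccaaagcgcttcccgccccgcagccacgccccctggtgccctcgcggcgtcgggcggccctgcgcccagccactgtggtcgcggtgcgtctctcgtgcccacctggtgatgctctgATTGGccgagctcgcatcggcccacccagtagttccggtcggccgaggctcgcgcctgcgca
Cyp51 (chr5:4104698-4104947, minus strand, the GC-rich SMAD box and a CCAAT box in capitals): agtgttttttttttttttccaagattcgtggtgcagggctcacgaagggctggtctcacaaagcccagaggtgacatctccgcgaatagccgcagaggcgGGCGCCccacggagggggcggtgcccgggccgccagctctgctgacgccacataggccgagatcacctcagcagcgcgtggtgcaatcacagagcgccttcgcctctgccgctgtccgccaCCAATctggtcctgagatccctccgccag
Insig1 (chr5:28071162-28071411, plus strand, a CCAAT box and the E-box in capitals): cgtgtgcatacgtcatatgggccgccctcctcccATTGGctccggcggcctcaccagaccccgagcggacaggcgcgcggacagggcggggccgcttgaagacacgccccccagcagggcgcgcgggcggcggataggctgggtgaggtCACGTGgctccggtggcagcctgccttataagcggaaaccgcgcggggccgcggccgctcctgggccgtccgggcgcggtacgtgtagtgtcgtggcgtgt
Sc5d (chr9:42264301-42264550, minus strand, the E-box and a CCAAT box in capitals): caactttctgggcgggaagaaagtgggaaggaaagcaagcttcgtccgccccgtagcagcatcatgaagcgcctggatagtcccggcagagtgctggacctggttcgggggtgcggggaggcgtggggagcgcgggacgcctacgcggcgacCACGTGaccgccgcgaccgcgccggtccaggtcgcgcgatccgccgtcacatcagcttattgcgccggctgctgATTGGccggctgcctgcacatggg
Srebf2 (chr15:82147019-82147268, plus strand, a CCAAT box in capitals): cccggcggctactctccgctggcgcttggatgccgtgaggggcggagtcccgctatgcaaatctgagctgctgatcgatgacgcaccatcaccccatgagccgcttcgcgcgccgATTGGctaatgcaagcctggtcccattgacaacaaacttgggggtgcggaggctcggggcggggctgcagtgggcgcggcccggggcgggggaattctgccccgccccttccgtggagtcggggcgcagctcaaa

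The sterol regulatory element letters were found in the promoter of 1 of the 23 members, Hmgcs1, where the match began at position -137 from the start site. Only the pattern TCACNCCAC was searched, so variant forms of the element were not counted. Over all 32851 listed promoters, 1.24% held this motif, and so did 1.44% of all genes with a listed promoter. The CCAAT letters were found in 20 of the 23 members, against 37.4% of all promoters and 41.1% of all genes. Mvk had matches at 5 positions, and Hmgcs1 at 4. The E-box was found in Hsd17b7, Sc5d, Dhcr7, Scap and Insig1, or 21.7% of the members, against 7.15% of all promoters and 8.09% of all genes. In Insig1 it began at -101 and in Sc5d at -98. The GC-rich SMAD box was found in Cyp51, Tm7sf2, Msmo1, Scap and Fasn, against 11.9% of all promoters and 13.4% of all genes. These matches are descriptions of letters in a window and show no binding.

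**Figure D1:**
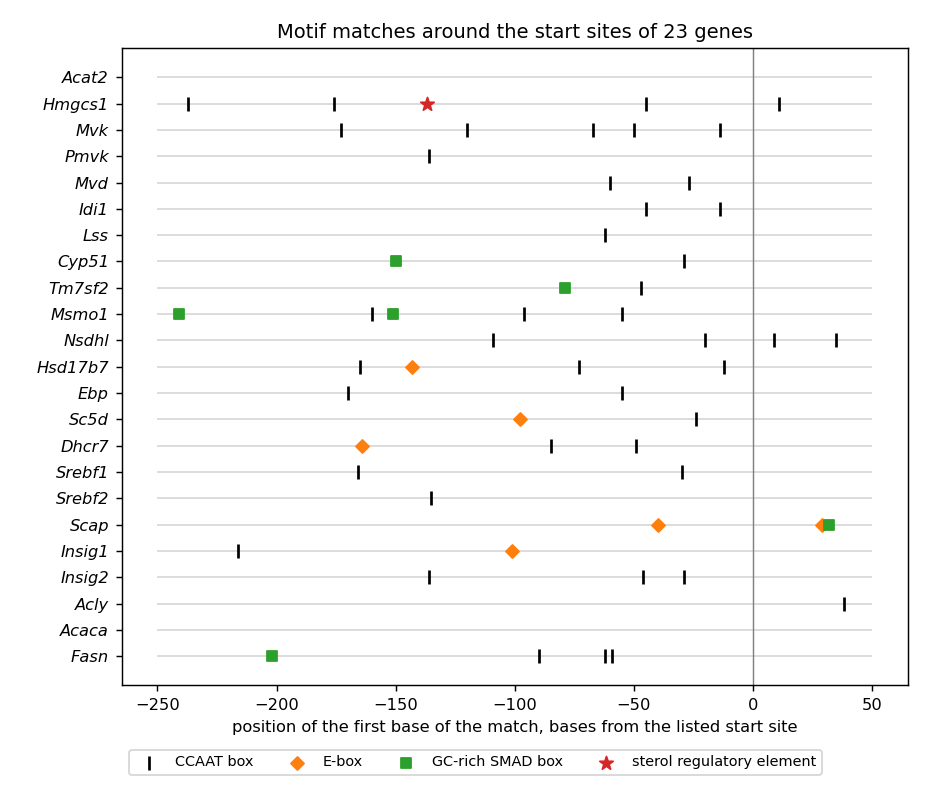
Motif matches around the listed RefSeq start sites of 23 members, with the position of the first base of each match in bases from the start site on the x axis and 1 gene per line. CCAAT matches stand in 20 of the 23 genes, whereas the searched form of the sterol regulatory element appears once, in Hmgcs1 at -137. For genes with several listed promoters, matches of each are drawn from their own start site.

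The labelled cell type was checked against its markers. Pax7, the marker of MuSCs, was at 8.29 to 11.7 TPM, and Myod1, a myogenic determination factor, was at 536 to 631 TPM. Myog, which marks cells entering differentiation, was at 4400 to 5472 TPM. Of 6 adipocyte markers, Adipoq, Plin1, Cidec and Lep were at 0 in all 4 libraries. Fabp4 was at 0.345 to 0.784 TPM and Pparg at 2.26 to 3.31 TPM. The adipocyte list summed to between 2.91 and 4.09 TPM, most of it Pparg. The sums were at most 0.298 TPM for 3 endothelial markers, 1.79 TPM for 3 immune markers and 0.601 TPM for 3 Schwann cell markers. The fibroblast list, with 5 markers, summed to 135 and 103 TPM in the controls and to 130 and 89.2 TPM after BMP6 for replicates 1 and 2. Most of that was Col3a1, at 69.4 to 109 TPM, followed by Ly6a at 18.7 to 24.1 TPM, above the level of Pax7. Dcn was at 0.955 to 1.92 TPM, Lum did not exceed 0.270 TPM and Pdgfra did not exceed 0.164 TPM. The depth, rebuilt from coverage, was 108 to 112 reads per library in units of 1000000, which include copies made by amplification. As a check of the stimulus, Id1, a direct BMP target, was at 90.5 and 129 TPM in the controls and at 584 and 513 TPM after BMP6 (log2 fold change 2.33 ± 0.17 SE, adjusted p = 0.016, limma). In bulk RNA, fewer cells of a type and less RNA per cell cannot be told apart.

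The levels of the mevalonate steps ranged widely in the serum-free controls, and Fdps and Acat2 were the most abundant of all members. Fdps, which makes farnesyl diphosphate, was at 757 ± 3.50 TPM (SD, n = 2), the highest level of any member and rank 175 of the tested entries. Acat2, the thiolase that opens the route, followed at 372 ± 43.1 TPM. Idi1, the isopentenyl diphosphate isomerase, was at 196 ± 9.26 TPM, and Hmgcs1, which makes HMG-CoA, was at 154 ± 21.0 TPM. The later kinases and the decarboxylase were lower, with Mvk at 59.0 ± 2.16, Pmvk at 97.0 ± 0.86 and Mvd at 105 ± 0.50 TPM. Among these 3, Pmvk and Mvd lay close together and Mvk lay below both in each control library.

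From squalene to cholesterol, the control means spanned 25.8 to 340 TPM. Msmo1, the methylsterol monooxygenase, was at 340 ± 5.49 TPM, and Fdft1, the squalene synthase, at 284 ± 7.59 TPM. Sqle, the squalene epoxidase, was at 163 ± 9.53 TPM, and Cyp51, the lanosterol demethylase, at 135 ± 7.96 TPM. Lss, the lanosterol synthase between these steps, was lower at 44.5 ± 5.91 TPM. Nsdhl (99.7 ± 1.70 TPM), Ebp (62.7 ± 3.20 TPM), Sc5d (49.1 ± 3.58 TPM) and Hsd17b7 (35.2 ± 3.87 TPM) carry out the later changes of the sterol ring. Dhcr7, the reductase of a final step, was the lowest at 25.8 ± 1.45 TPM. The entry named Tm7sf2, a sterol reductase, stood at 105 ± 5.85 TPM, but the transcripts of the neighbouring genes Vps51 and Zfpl1 made up 91.9 to 93.9% of it. Transcripts of Tm7sf2 itself carried 6.39 to 8.06 TPM in the 4 libraries, so its own level was the lowest of the sterol steps.

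Among the regulators, Insig1 was at 85.3 ± 3.48 TPM and Insig2 at 56.8 ± 0.36 TPM. Srebf2 was at 52.7 ± 14.1 TPM and Srebf1 at 30.3 ± 2.49 TPM. Scap was at 6.28 ± 0.97 TPM, and 35.2% of the tested entries were lower.
The Srebf1 entry held 1 transcript of Srebf1, so the SREBP-1a and SREBP-1c forms, which differ in their first exon, were not separated.
Among the fatty acid genes, Scd2, a stearoyl-CoA desaturase, was at 190 ± 1.89 TPM and its paralog Scd1 at 26.9 ± 0.95 TPM. Acly, which makes cytosolic acetyl-CoA from citrate, was at 79.4 ± 12.0 TPM. The enzymes that build the chain were far lower, with Fasn, the fatty acid synthase, at 10.4 ± 2.69 TPM and Acaca, the acetyl-CoA carboxylase, at 1.87 ± 0.50 TPM. Stard4 was at 17.3 ± 0.70 TPM. Over the 4 libraries, 26 of the 29 entries had at least 10 TPM in each library. The exceptions were Scap, Fasn and Acaca, and the transcripts of Tm7sf2 alone were also below 10 TPM in each library.

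**Figure D2:**
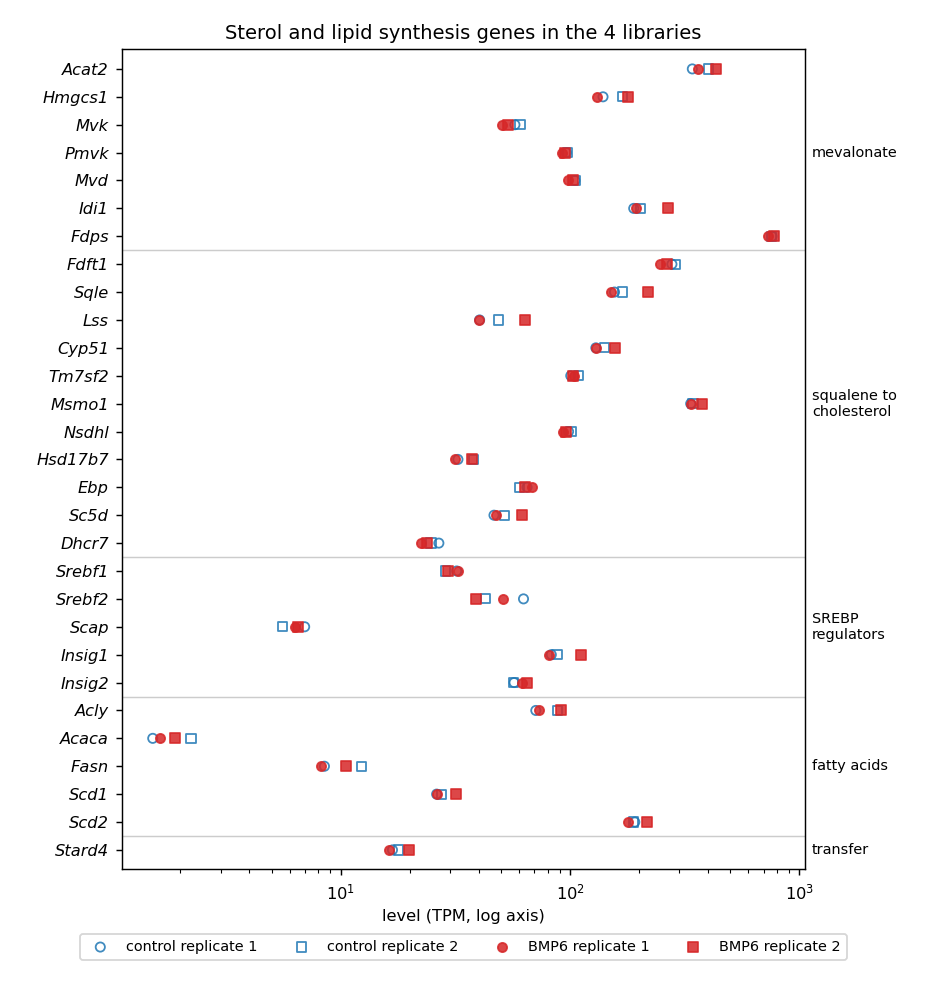
Levels of the 29 members in each of the 4 libraries, in TPM on a log axis, grouped by pathway step. The levels span from Acaca, at 1.87 TPM on average in the controls, to Fdps, at 757 TPM, and the 4 points of most genes lie close together compared with the distances between genes.

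The comparison of BMP6 with vehicle asked which genes respond to BMP6 within 1 h. None of the 29 members was called (0 of 29, limma on log2(TPM + 1), with an adjusted p under 0.1 and a change of 2-fold or more in either direction). Over all tested entries, 0.206% met this rule and 0.244% met the adjusted p alone. The adjusted p of each member was 1.0, and at an unadjusted p under 0.05 the count was also 0, against 3.2% of all entries. Voom on rebuilt reads likewise passed 0 members, and 0 at an unadjusted p under 0.05. The median log2 fold change of the members was 0.033, compared with 0.016 over all tested entries. Without BMP6 replicate 2 the median turned to -0.076.

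The intervals give the range of changes compatible with the values in the fit of the group alone, which ignores the pairing. The fold changes ran from -0.21 for Srebf2 to 0.21 for Idi1, on a log2(TPM + 1) scale. The 95% intervals of all 29 entries lay within a 2-fold change in either direction on this scale, and those of 25 lay within a 1.5-fold change. The interval of the Tm7sf2 entry describes mainly its neighbours. The exceptions to the narrower bound were Lss (-0.36 to 0.74), Srebf2 (-0.73 to 0.31), Fasn (-0.63 to 0.39) and Idi1 (-0.17 to 0.59). The added 1 TPM narrows the intervals of low genes. With a pseudocount of 0.1 all 29 still lay within a 2-fold change and 23 within a 1.5-fold change, and Acaca ran from -0.72 to 0.60. The group medians were -0.01 for the mevalonate steps, 0.07 from squalene to cholesterol, 0.03 for the regulators and 0.05 for the fatty acid genes.

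**Figure D3:**
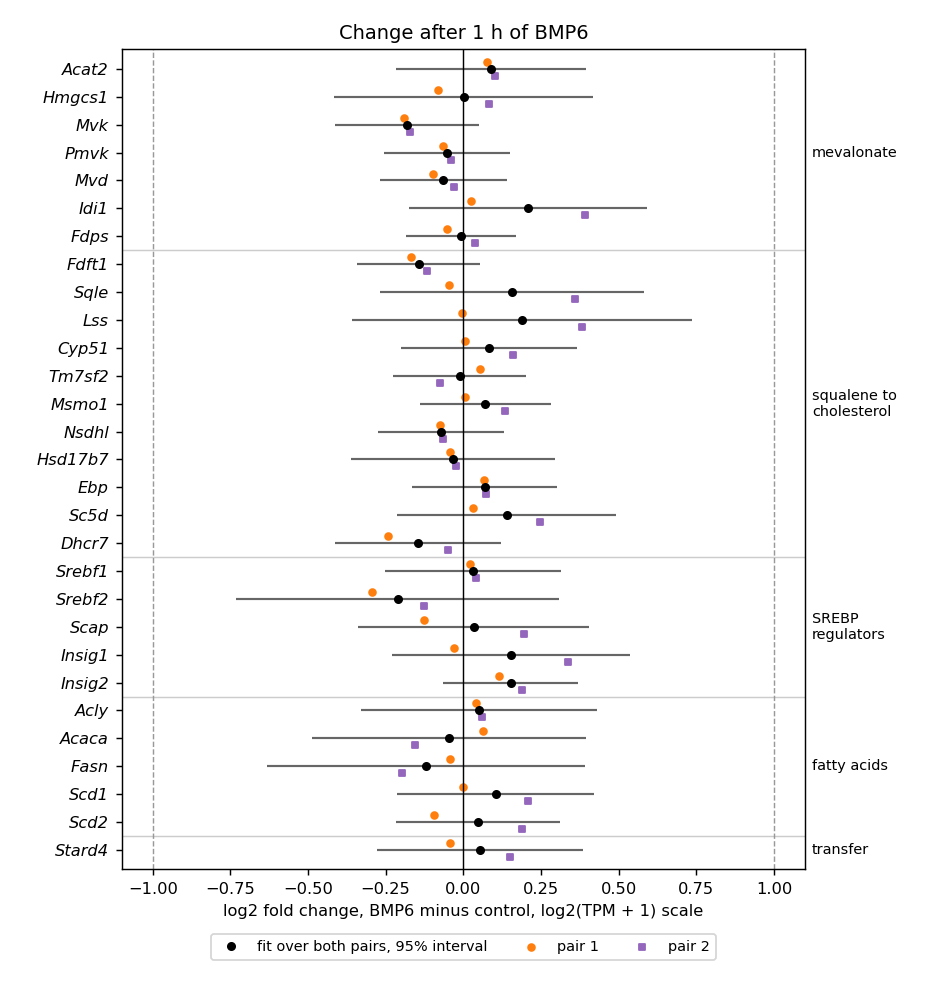
Change after 1 h of BMP6 for each member as log2 fold change on the log2(TPM + 1) scale, with the fit over all 4 libraries (black, with its 95% interval) and the difference within each same-numbered pair of libraries (orange circles for pair 1, purple squares for pair 2). Dashed lines mark a 2-fold change. The intervals are from the fit of the group alone, which ignores the pairing. Every interval of that fit crosses 0 and lies inside the dashed lines, and the values run from -0.21 (Srebf2) to 0.21 (Idi1).

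Same-numbered libraries share the batch that the labels name, so the change was also read within each pair. In pair 1, 12 of the 29 members were higher after BMP6, with a median difference of -0.04. In pair 2, 18 were higher, with a median of 0.07. Across both pairs, 10 members were higher and 9 were lower, against 35% and 25.7% of all tested entries. The direction was the same in both pairs for 65.5% of the members and for 60.6% of all entries. The correlation of the changes in pairs 1 and 2 over the 29 members was 0.379, and over all 13128 entries it was 0.373. It is across genes, which are not independent replicates, and is given as a description.

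The larger differences stood in pair 2. Idi1 was at 190 and 203 TPM in control replicates 1 and 2 and at 193 and 266 TPM after BMP6. Its log2 difference was 0.03 in pair 1 and 0.39 in pair 2. Only the BMP6 library of replicate 2 stood apart from the other 3. Sqle gave 156 and 170 TPM in the controls and 151 and 218 TPM after BMP6, a difference of -0.05 and 0.36 for pairs 1 and 2. Lss was at 40.3 and 48.7 TPM in the controls and at 40.2 and 63.7 TPM after BMP6, or -0.00 and 0.38. Insig1 was at 82.9 and 87.8 TPM in the controls and at 81.1 and 111 TPM after BMP6, or -0.03 and 0.34. For Sqle, Lss and Insig1 the pair 1 values were nearly equal and BMP6 replicate 2 was the highest library, and the groups overlapped. Whether the BMP6 effect differed between the pairs could not be tested, because 4 libraries leave no residual for it.

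**Figure D4:**
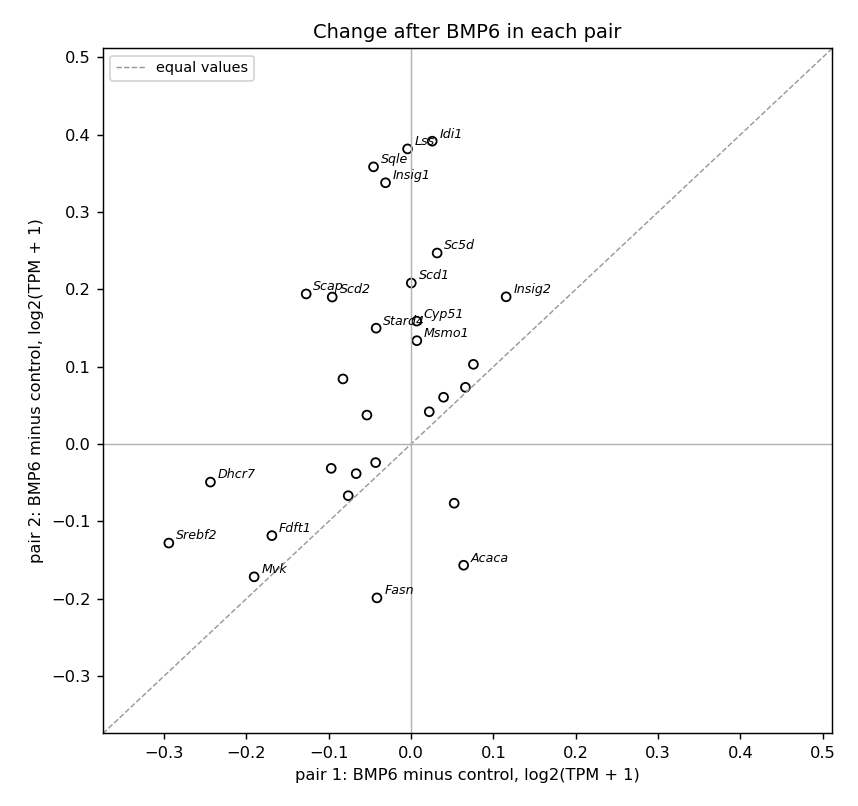
Change after BMP6 of each member within pair 1 (x axis) and pair 2 (y axis), as BMP6 minus control on the log2(TPM + 1) scale, 1 circle per gene. Names are given for members with a difference over 0.12 in either pair. Idi1, Lss, Sqle and Insig1 lie high on the y axis (0.39, 0.38, 0.36 and 0.34) and near 0 on the x axis, while Srebf2, Fdft1 and Mvk lie below 0 on both.

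A few members shifted by similar small amounts in both pairs. Mvk was at 57.5 and 60.6 TPM in the controls and at 50.3 and 53.7 TPM after BMP6, or -0.19 and -0.17 for pairs 1 and 2. Fdft1 was at 278 and 289 TPM in the controls and at 247 and 266 TPM after BMP6, or -0.17 and -0.12. The BMP6 and control values of both genes did not overlap. Of the 29 members, 6 did not overlap with lower values after BMP6 (Mvk, Pmvk, Mvd, Fdft1, Nsdhl and Dhcr7), against 11.6% of all tested entries. Only Insig2 did not overlap with higher values, at 57.0 and 56.5 TPM in the controls and 61.9 and 64.6 TPM after BMP6, against 16.6% of all entries. Srebf2 was at 62.7 and 42.7 TPM in the controls and at 50.9 and 38.98 TPM after BMP6, or -0.29 and -0.13, and its groups overlapped.

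With the replicate number as a block, no member passed the adjusted p (0 of 29, lowest adjusted p = 0.312, limma), against 1.64% of all entries. At an unadjusted p under 0.05 the block gave 4 members, against 12.9% of all entries. These were Idi1 with a positive fold change, and Mvk, Fdft1 and Srebf2 with negative ones. With the block, the 95% interval was 0.02 to 0.40 for Idi1 and -0.34 to -0.02 for Mvk. It was -0.26 to -0.02 for Fdft1 and -0.39 to -0.04 for Srebf2, without adjustment for the number of entries. Des, the muscle intermediate filament gene, was -0.24 after BMP6 in the same fit (adjusted p = 0.031 with the block and 1.0 without, limma), and its part in these values was not tested.

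The coherence of the set was then read between the replicates. Here 11 of the 29 members were higher in replicate 2 than in replicate 1 at an adjusted p under 0.1 (limma, group and replicate as terms), against 11.4% of all tested entries. One member, Srebf2, was lower (1 of 29), against 8.37% of all entries. The median difference of the members was 0.12, compared with 0.03 over all entries. Each replicate number is 1 batch, so this p measures how alike the difference was in the control and BMP6 libraries and not the spread between independent preparations. With all entries fitted without a filter on low values, no member and no entry passed, and without the mean-variance trend 3 members passed (Hmgcs1, Srebf2 and Fasn).

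In the mevalonate group, Hmgcs1 rose from 139 to 169 TPM between control replicates 1 and 2 and from 131 to 179 TPM between the BMP6 replicates. Its difference was 0.36 ± 0.06 (SE, adjusted p = 0.012, limma). Acat2 went from 341 to 402 TPM in the controls and from 360 to 432 TPM after BMP6, or 0.25 ± 0.05 (adjusted p = 0.016, limma). Idi1, described above, differed by 0.28 ± 0.08 (adjusted p = 0.062, limma), mostly through the BMP6 libraries, with 0.10 in the controls and 0.46 after BMP6. The other 4 genes of the group did not pass, and Fdps differed by 0.04.

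From squalene to cholesterol, 5 of 11 members passed the adjusted p of 0.1 with higher values in replicate 2, against the 11.4% of all entries given above. None of the 11 passed with lower values, although Ebp, at -0.10, was lower in both libraries of replicate 2 than in both of replicate 1. Lss differed by 0.46 ± 0.10 (adjusted p = 0.021, limma), with 0.27 in the controls and 0.65 after BMP6. Sqle differed by 0.32 ± 0.09 (adjusted p = 0.052, limma), with 0.12 in the controls and 0.52 after BMP6. Sc5d, the sterol desaturase, went from 46.6 to 51.7 TPM in the controls and from 47.7 to 61.5 TPM after BMP6, or 0.25 ± 0.08 (adjusted p = 0.074, limma). Cyp51 went from 130 to 141 TPM and from 130 to 157 TPM, or 0.20 ± 0.06 (adjusted p = 0.084, limma). Hsd17b7, the sterol ketoreductase, went from 32.5 to 37.9 TPM and from 31.5 to 37.3 TPM, or 0.23 ± 0.08 (adjusted p = 0.087, limma). In these 5 genes both libraries of replicate 2 lay above both libraries of replicate 1.

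The SREBP regulators split. Insig1 was 0.27 ± 0.09 higher in replicate 2 (adjusted p = 0.089, limma), mostly through the BMP6 libraries, with 0.08 in the controls and 0.45 after BMP6. Srebf2, the gene of SREBP-2, was lower by -0.46 ± 0.08 (adjusted p = 0.0090, limma). Srebf2 differed by -0.54 in the controls and by -0.38 after BMP6, so its sign was opposite to that of the sterol genes that rose. Srebf1 (-0.15), Scap (-0.11) and Insig2 (0.02) did not pass. Fasn, among the fatty acid genes, went from 8.50 to 12.3 TPM in the controls and from 8.23 to 10.6 TPM after BMP6, or 0.41 ± 0.10 (adjusted p = 0.034, limma). Acly went from 70.9 to 88.0 TPM in the controls and from 72.9 to 91.8 TPM after BMP6, or 0.32 ± 0.06 (adjusted p = 0.019, limma). The values of Acaca (0.25), Scd1 (0.17), Scd2 (0.12) and Stard4 (0.17) did not pass.

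**Figure D5:**
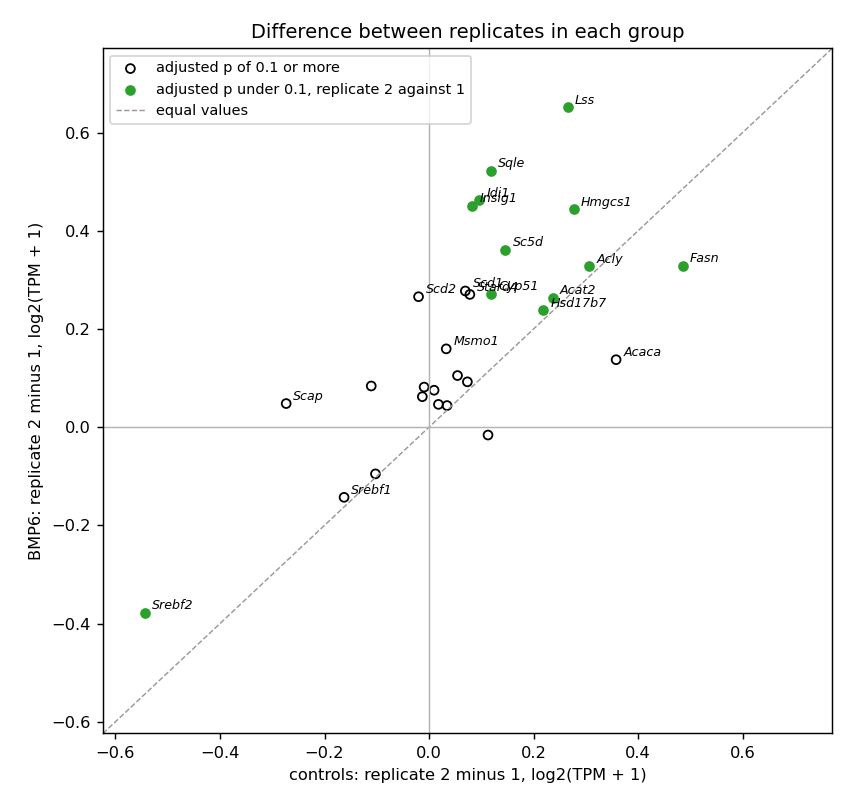
Difference between replicate 2 and replicate 1 of each member in the controls (x axis) and after BMP6 (y axis), on the log2(TPM + 1) scale. Filled points are the 12 members past an adjusted p of 0.1, and names are given for members with a difference over 0.12 on either axis. The 11 higher members lie to the upper right, up to Lss at 0.27 and 0.65, and Srebf2 lies alone at the lower left, at -0.54 and -0.38.

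The direction was shared by most members. In the controls 21 of 29 members were higher in replicate 2, and after BMP6 25 of 29 were, compared with 55.2% and 54.9% of all entries. Both libraries of replicate 2 lay above both of replicate 1 for 15 members, against 31.2% of all entries, and below for 3 (Ebp, Srebf1 and Srebf2), against 24% of all entries. The correlation of the replicate difference in the controls with that after BMP6 was 0.705 over the 29 members and 0.563 over all 13128 entries. The libraries of a number share their batch. The members' TPM summed to 3556 and 3727 in control replicates 1 and 2 and to 3468 and 3994 after BMP6, so the BMP6 library of replicate 2 was the highest and that of replicate 1 the lowest. Muscle markers also moved with the replicate number. Myog was 0.24 higher (adjusted p = 0.0056, limma) in replicate 2, while Myf5 (-0.52), Cdh15 (-0.35) and Des (-0.23) were lower, with adjusted p values of 0.0019, 0.0077 and 0.011 (limma). Pax7 (0.27) and Myod1 (0.09) were also higher in replicate 2 but did not pass, with adjusted p values of 0.101 and 0.340 (limma). Col3a1 was lower by -0.53 (adjusted p = 0.0028, limma), and the part of these genes in the members' differences was not tested.

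Other genes around these pathways were taken from 5 lists with 48 genes, of which 45 were tested. None passed the adjusted p after BMP6 (0 of 45, limma), against 0.244% of all entries without the block and 1.64% with it. At an unadjusted p under 0.05, 1 passed without the block, against 3.2% of all entries. With the block 2 passed (Elovl5 and Mylip), against 12.9% of all entries. Voom with the block gave 7 at that level, 6 of them higher after BMP6. The gene without the block was Mylip, the ubiquitin ligase that lowers lipoprotein receptors. Mylip was at 2.41 and 3.03 TPM in the controls and 4.45 and 4.25 TPM after BMP6. After BMP6 it stood 0.53 ± 0.15 higher on the log2 scale (SE, adjusted p = 1.0, limma, and 0.124 with the block), and voom with the block passed it (adjusted p = 0.096). The groups did not overlap for Mylip, which had the largest value in the list of sterol uptake, export and storage. Nr1h3, a sterol-sensing nuclear receptor, had the lowest value in that list, at -0.12.

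In the other lists the values were smaller. Of genes for SREBP processing and turnover, Erlin2 (0.07) was the highest and the protease gene Mbtps1 (-0.07) the lowest. In the list of fatty acid precursors, elongation and desaturation, the elongase genes Elovl5 (0.22) and Elovl1 (-0.01) were the extremes. Among isoprenoid branches, the prenyltransferase subunit gene Pggt1b (0.19) and the ubiquinone synthesis gene Coq2 (-0.08) were the extremes. In glycerolipid synthesis and droplets, these were the acyltransferase genes Gpam (0.20) and Dgat2 (-0.18). Between replicates at an adjusted p under 0.1 (limma), 2 of the 45 context genes passed with higher values in replicate 2 (Elovl1 and Nus1), against 11.4% of all entries. Another 5 passed with lower values (Rnf145, Slc25a1, Scarb1, Vldlr and Dgat2), a share near the 8.37% of all entries. One entry of these lists, Rnf139, was almost entirely another gene, with 1.70% of its TPM in transcripts of Rnf139.

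Several entries hold reads that could belong to other genes. The libraries were unstranded, so a member and a gene on the opposite strand cannot be told apart where their exons overlap. Such overlap covered 28.3% of the annotated exon bases of Cyp51 (largely with Akap9 and 2 unnamed models), 24.8% of Fdft1 (with Ctsb), 20.5% of Mvd and 12.0% of Hmgcs1. It covered 10.7% of Srebf2, 10.0% of Scap and 9.10% of Idi1, and smaller shares of several other members. The share of 100-base words that a member's transcripts had in common with genes elsewhere was 21.8% for Acaca, 14.9% for Idi1 (with the pseudogene Idi1-ps1 foremost) and 11.8% for Acat2 (with Acat3). Their levels are uncertain, and how many of their reads came from these other genes was not tested. The assignment of reads among transcripts of 1 gene also differed in a library. The leading transcript of Dhcr7 carried 95.2 to 99.8% of its TPM in 3 libraries and 22.0% in control replicate 2. For Acly it carried 59.0 to 67.1% in 3 libraries and 12.7% in control replicate 2.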

How the data were processed

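PolyA RNA of 4 libraries (2 BMP6, 2 control) was sequenced from unstranded, amplified full-length cDNA without molecular identifiers, as paired reads of 100 bases. Following the published methods, the authors mapped reads with STAR 2.7.11a to GRCm39 with GENCODE M32, sorted them with SAMtools 1.17 and quantified a merged assembly with StringTie 2.2.1. Per the file headers, StringTie ran without its correction for reads placed at several positions. The authors deposited TPM per gene, which sums to 1000000 per library, and FPKM per gene, scaled by length and mapped fragments. The signal in the deposited files of each library is coverage, the mean depth over a transcript, not scaled by library size.

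The 29 members and the gene lists beside them were chosen with earlier results of these data known, and all 29 members were named. Of each list, genes past the threshold and those with the highest and lowest fold change were named. Groups and replicate numbers came from the labels. limma 3.58.1 (R 4.3.3) was run on log2(TPM + 1), which understates changes of low genes, over the 13128 entries with a mean of at least 1 TPM, two-sided, with a mean-variance trend and Benjamini-Hochberg adjustment. A gene was called at an adjusted p under 0.1 and a fold of at least 2 (or at most 0.5), the thresholds of the study. The authors ran their own count test on read numbers rebuilt from coverage. Such reads are estimates, so the test on TPM was kept as the main one and voom on rebuilt reads as an alternative. With 2 libraries in each group, a permutation test cannot go below p = 0.333 (two-sided). A BMP6 and a control library of the same number carry the same batch label, so differences were also read within these pairs. The replicate number entered the fits with the block. The main test of BMP6 used the group alone and ignored the pairing. Their deviations from the means of their groups correlated at 0.563 over the tested entries, which are not independent. The difference between replicates came from a fit with group and replicate as terms. The labels call the replicates biological but do not say whether animals were pooled. Reads rebuilt from coverage served only for depth and the voom alternative. The limma fits for BMP6 and for the replicates were tried on simulated data with planted changes. The noise there was smaller than the spread in these data, and the planted changes were larger than those of the members. The BMP6 simulation held no shared replicate effect. Voom and the searches of promoters and words were not tried this way. Overlaps and shared words came from GENCODE M39 on GRCm39, and promoters from RefSeq on GRCm38.p6, so no coordinate was carried from one build to the other. Some genes of these pathways are not reported here.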

Additional observations from a re-analysis of the deposited data

How the results depend on the processing

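No member was called under any alternative tried (2 other pseudocounts, 2 other filters, quantile normalization, FPKM in place of TPM, no trend, voom on rebuilt reads, an adjusted p under 0.05, no fold threshold and leaving out each library). The replicate block, taken from the shared batch in the labels, gave 0 members called as well and changed no member's call, and so did voom with the block (lowest adjusted p = 0.177, limma). The number of members lower in both pairs was 9, and 10 with FPKM. The median log2 fold change of the members ranged from -0.076 to 0.087 when libraries were left out, and it was negative only without BMP6 replicate 2. Of the alternatives chosen after seeing the data, leaving out the Tm7sf2 entry gave a median of 0.040, and the transcripts of Tm7sf2 alone gave it a fold change of -0.14. Hmgcs1, at 0.00071 in the test reported, turned to -0.027 with quantile normalization, -0.024 with FPKM, -0.0086 with voom and -0.0062 with voom and the block. When each library was left out, with a lone library assumed to vary like the other group, 21 members changed sign without reaching the threshold. Their log2 fold changes ran for Acat2 from -0.042 to 0.22, Hmgcs1 from -0.22 to 0.22, Idi1 from -0.022 to 0.44, Fdps from -0.049 to 0.033, Sqle from -0.10 to 0.42, Lss from -0.14 to 0.51, Cyp51 from -0.053 to 0.22. They ran for Tm7sf2 from -0.069 to 0.044, Msmo1 from -0.0094 to 0.15, Hsd17b7 from -0.15 to 0.085, Sc5d from -0.041 to 0.32, Srebf1 from -0.049 to 0.11, Srebf2 from -0.48 to 0.061, Scap from -0.10 to 0.17. The rest ran for Insig1 from -0.072 to 0.38, Acly from -0.11 to 0.21, Acaca from -0.23 to 0.13, Fasn from -0.36 to 0.12, Scd1 from -0.034 to 0.24, Scd2 from -0.086 to 0.18, Stard4 from -0.081 to 0.19. The members past the threshold between replicates numbered 12, against 0 with no filter on low values (when no entry passed), 3 without the trend and 6 at an adjusted p under 0.05. The other settings gave 10 to 14. With FPKM the replicate difference turned negative for Pmvk (-0.0039), Fdps (-0.00032) and Insig2 (-0.011). Replicates could not be left out of that comparison, because 3 libraries leave no residual. The causes of these changes were not tested. With 2 libraries in each group, small changes could have gone undetected. The 95% intervals given above for all members come from the fit that ignores the pairing and are not limits of detection. Acaca, at 1.52 to 2.22 TPM, had the lowest level of the 29 entries.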
